A study of Mus musculus with 4 samples.

Results

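Gene expression in bronchial epithelial cells of antigen-challenged mice was compared between an array labelled Pla2g3-/- and an array labelled Pla2g3+/+ (wild type). The difference was taken for every gene as the log2 level on the array labelled Pla2g3-/- minus the log2 level on the wild-type array. Of the 27746 genes with a name on the array, 23317 were well above background on at least 1 of the 2 arrays and make up the comparison. Of these, 21853 were well above background on both arrays, 362 only on the array labelled Pla2g3-/- and 1102 only on the wild-type array. A further 4429 genes were not well above background on either array and have no value.

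The mice of both challenged groups had been sensitised by intraperitoneal injection of 10 µg ovalbumin with 1.3 mg alum in 0.2 ml saline on days 0 and 14. From day 26 to day 28 they inhaled an aerosol of 1% ovalbumin daily, 30 min each time. The bronchial epithelial cells were prepared from lungs collected 3 h after the last exposure. The control groups carried the same 2 genotype labels, and the sources used here do not give what those mice received. Each array held RNA pooled from 4 samples, so there is 1 array a group, no measure of the spread between mice, and no test. Nor do they give the age, strain and sex of the mice, or which part of Pla2g3 was deleted.

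The protein of Pla2g3, group III phospholipase A2, is secreted and cleaves membrane phospholipids into a free fatty acid and a lysophospholipid. The fatty acid can be turned into prostaglandins and leukotrienes, and lysophospholipids act through receptors of their own. In the airway the bronchial epithelium meets inhaled allergen first, and it recruits leukocytes by releasing chemokines, which bind receptors on neutrophils, eosinophils, lymphocytes and monocytes.

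The targeted gene itself was read by 2 probes, both on the plus strand of chromosome 11 in the mm9 build. Their first 30 bases are shown because they are what read the targeted gene on these arrays. The probe used for the gene lies at chr11:3394109-3394168 and the other at chr11:3393127-3393186.
Pla2g3 probe used: aggagtaaatgaattaatcaacacacatac
Pla2g3 other probe: ctgcaagtaacccaggcaatctggagacgc

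The processed intensity of Pla2g3 at the probe used was 239.5 in wild-type control cells, 2023 in control cells labelled Pla2g3-/-, 254 in wild-type challenged cells and 4154 in challenged cells labelled Pla2g3-/-. Both arrays labelled Pla2g3-/- were therefore brighter than both wild-type arrays, which goes against what a label of a missing gene would give. The difference between the challenged arrays was 3.90 on the log2 scale (14.9-fold higher), and that between the control arrays was 3.19. At the other Pla2g3 probe the intensities were 44.1, 177, 13.1 and 336 in the same order, a challenged difference of 4.56 (23.5-fold higher). Whether either probe lies in a deleted part is not given, so neither shows that the gene was absent. For that reason every direction below is given for "the array labelled Pla2g3-/-".

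Marker genes of airway epithelium were present, as the label says, and so were those of other lung cells. All 12 general epithelial markers and all 11 club cell, 15 ciliated cell and 10 basal cell markers on the array were well above background on both challenged arrays. No gene of these lists differed 2-fold. Over all genes measured on both arrays 3.07% were higher and 1.69% lower. In the brightest of 5 groups of genes by level, where the medians of these lists lie, 0.618% were higher and 0.549% lower. Finding none in these lists therefore lies near the share among genes this bright. Scgb1a1, the main secretory protein of club cells, had an intensity of 429700 on the wild-type array and 406500 on the array labelled Pla2g3-/-. For Epcam, an epithelial surface protein, the difference was -0.03, and for Foxj1, the transcription factor of ciliated cells, it was -0.07. The median difference was -0.14 for general epithelial markers, -0.21 for club cell, -0.13 for ciliated cell and 0.02 for basal cell markers. Of the lists for other cells, all 11 alveolar type 2 cell and 9 of 10 alveolar type 1 cell markers were well above background on both arrays. So were all 6 mesothelial and 10 of 11 red cell and platelet markers. The summed intensity of these lists, wild type first, was 393500 and 437300 for alveolar type 2, 172000 and 177000 for alveolar type 1, 278500 and 287400 for mesothelial, and 418800 and 380000 for red cell and platelet markers. It was 587800 and 580700 for the 12 general epithelial markers. The mesothelial list shares Krt19 with the general epithelial list, and the alveolar type 1 list shares Pdpn with the basal cell list. The median log2 level of the mesothelial list was only -0.35 on the wild-type challenged array. A sum can thus rest on a few bright or shared genes and does not measure how many cells of a type were present. Of the alveolar, mesothelial, red cell and platelet markers, the surfactant protein gene Sftpb (-1.23) and Slc4a1 (-1.02), the red cell anion exchanger, were 2-fold lower. The platelet genes Ppbp, Pf4 and Gp9 (1.94) were 2-fold higher. With background modelled by normexp, described below, Slc4a1 was at -0.92 and Gp9 at 0.85, both under 2-fold.

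Most genes differed little. The median difference over 21853 genes was -0.05, the quartiles were -0.20 and 0.11, and 83.9% of genes lay within 0.5 of 0 on the log2 scale. At least 2-fold higher on the array labelled Pla2g3-/- were 670 genes (3.07% of those measured on both arrays), and at least 2-fold lower were 370 genes (1.69%). With genes that have only a bound on 1 array, the counts were 895 (3.84%) and 569 (2.44%) of 23317. Past 4-fold, 125 genes were higher and 29 lower, and past 8-fold, 26 were higher and 9 lower.

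Calls were commonest among dim genes. With genes split by mean level into 5 groups of equal size, 258 were higher and 175 lower in the dimmest group, whereas 27 were higher and 24 lower in the brightest. Probes printed several times gave the precision of a difference within these arrays: over 330 such probes its median SD was 0.095 on the log2 scale, and over the 140 in the dimmer range it was 0.158. The scanner's own error of the difference ranged from 0.20 to 0.35 over the 15 largest differences in each direction. These errors cover spots and not mice. With background modelled by normexp in place of the scanner's subtraction, 281 genes were higher and 136 lower. Of the 201 genes named by rule that were past 2-fold, bounds included, 71 were under 2-fold with normexp, which adds an offset of 50 and so draws dim genes towards 0. Where the difference of such a gene is given below, its value with normexp is given too.

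**Figure D1:**
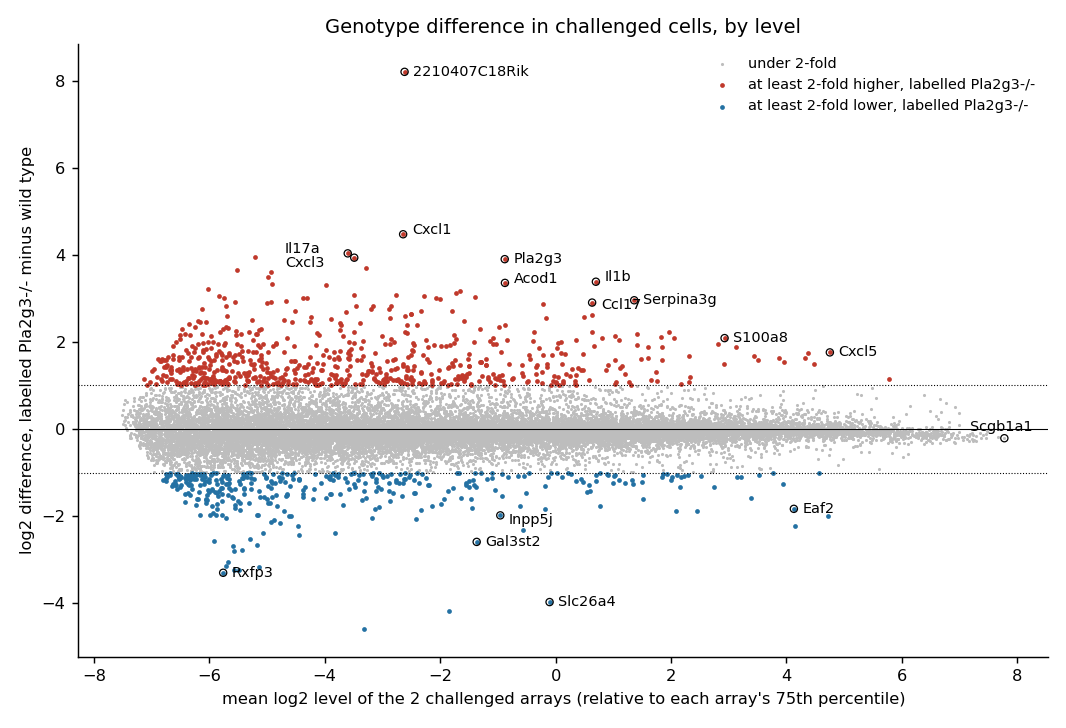
Each dot is 1 of 21853 genes; the horizontal axis is the mean log2 level of the 2 challenged arrays relative to each array's 75th percentile, and the vertical axis is the log2 difference, labelled Pla2g3-/- minus wild type, with dotted lines at 2-fold. The 670 higher genes (red) and 370 lower genes (blue) thin out towards high levels, and Cxcl1, Il17a, Cxcl3 and Pla2g3 stand at the top once clone names are set aside.

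Neutrophil-attracting chemokines and cytokines of myeloid cells and T cells were among the largest higher differences. Cxcl1, a ligand of the neutrophil receptor CXCR2, had an intensity of 24.7 in wild-type control, 102 in labelled control, 61.5 in wild-type challenged and 1495 in labelled challenged cells. Its difference of 4.47 (22.2-fold higher, scanner error 0.21) was the largest once clone names are set aside. Il17a, a cytokine of T cells that makes epithelium release such ligands, read 22, 20.4, 36.8 and 660 in the same order of arrays, a difference of 4.03 (16.4-fold). The pair of control arrays differed by only 0.01 for Il17a, at readings near the background limit.

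Cxcl3 and Cxcl2, 2 further CXCR2 ligands, were 3.93 and 3.70 higher on the log2 scale. Cxcl3 intensities were 18.8, 12.96, 41.2 and 690, and Cxcl2 intensities were 9.90, 19.5, 51.4 and 731, in the order wild-type control, labelled control, wild-type challenged, labelled challenged. For both genes the labelled challenged array was the brightest and the wild-type challenged array was second. Il1b, the main secreted interleukin 1, read 213, 392.4, 908 and 10370 (difference 3.38), and its intensity was also higher after challenge in the wild type. Acod1, the mitochondrial enzyme that makes itaconate in activated macrophages, read 95.1, 53.3, 308 and 3449 (difference 3.36).

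Receptors of phagocytes were also among the 15 largest. Olr1, a scavenger receptor for oxidised lipoprotein, read 14.0, 2.12, 11.1 and 152 (difference 3.65), with the lowest value below the background limit on the labelled control array. Clec4e, a lectin receptor for microbial glycolipid, read 199, 119, 191 and 1891 (difference 3.18). Mefv, which encodes the inflammasome protein pyrin, read 132, 104, 185 and 1764 at the probe used (difference 3.12). At the other of its 2 probes the difference was 1.59. For Clec4e and Mefv the 3 other arrays lay close together, and only the labelled challenged array stood apart.

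The rest of the 15 were Il1f9 (3.33), which encodes interleukin 36 gamma, the long noncoding RNA Mirt2 (3.09), the sensory-type receptors Mrgpra6 (3.49) and Mrgpra2a (3.07), and the prolactin family gene Prl3a1 (3.05). With normexp all 15 were still at least 2-fold higher, with a median difference of 2.71, although Prl3a1 was then at 1.00, Olr1 at 1.502, Il1f9 at 1.61 and Mrgpra6 at 1.70. Genes with only a bound were headed by the odorant receptor Olfr968 (at least 11.1-fold higher), Mrgpra5 (at least 10.1-fold) and the follicle-stimulating hormone receptor Fshr (at least 9.64-fold). With normexp their differences were 1.15, 1.04 and 1.07 on the log2 scale, little more than 2-fold. A clone-named gene, 2210407C18Rik, was chosen after its values were seen. It read 13.5, 469, 17.2 and 5541, a difference of 8.203 between the challenged arrays and 5.23 between the control arrays, the largest difference of all genes measured on both.

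**Figure D2:**
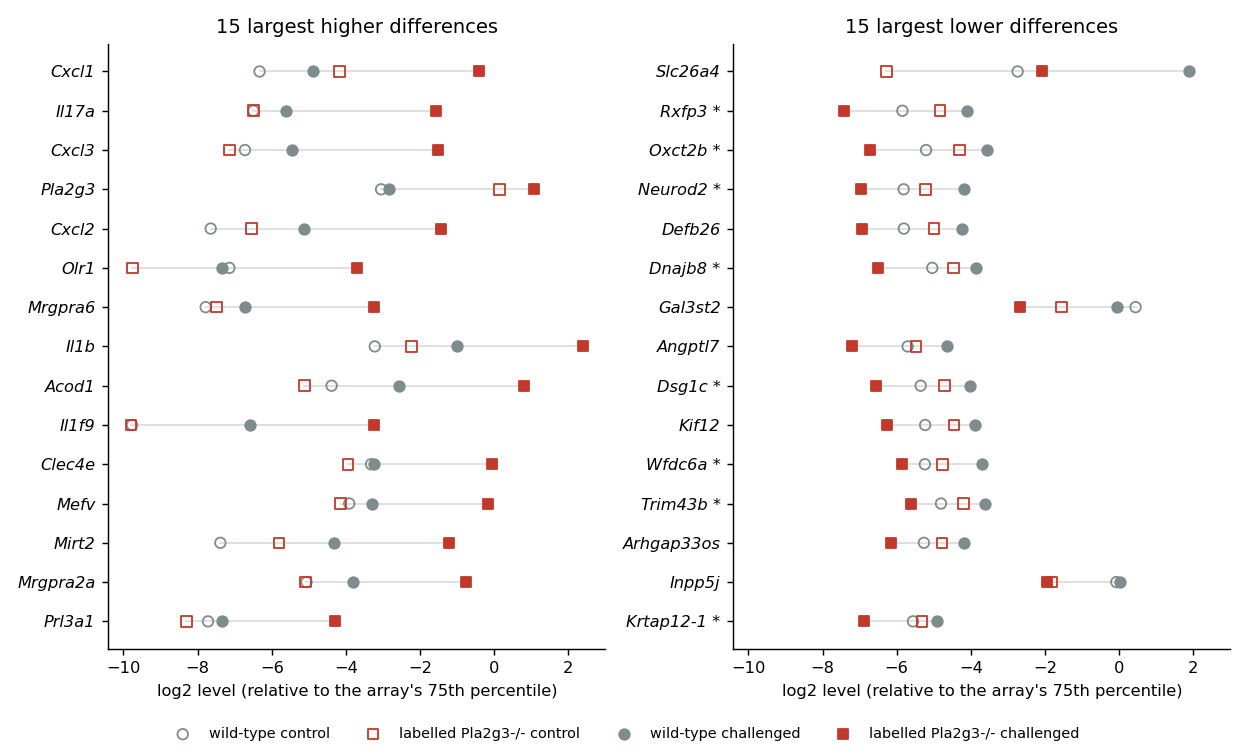
Log2 levels relative to the array's 75th percentile on the 4 arrays (open circle, wild-type control; open square, labelled Pla2g3-/- control; filled circle, wild-type challenged; filled square, labelled Pla2g3-/- challenged) of the 15 genes with the largest higher and the 15 with the largest lower difference; an asterisk marks a gene whose probe holds a run of a short repeat. On the left the filled square stands alone at the right of every row except Pla2g3, where the open square is near it, and on the right most genes follow 1 order of arrays at a low level.

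The 3 CXCR2 ligands among the largest differences lie in the same chemokine cluster on chromosome 5, and their promoters are shown because they share a stretch of 11 bases, the longest common to all 3. Each line gives the 250 bases before the gene's start from RefSeq on GRCm38.p6, plus strand, with the shared GGGAATTTCCC in capitals. This stretch contains a sequence of the kind known to be bound by NF-kB. The windows are chr5:90890995-90891244 for Cxcl1, chr5:90903649-90903898 for Cxcl2 and chr5:90785851-90786100 for Cxcl3.
Cxcl1: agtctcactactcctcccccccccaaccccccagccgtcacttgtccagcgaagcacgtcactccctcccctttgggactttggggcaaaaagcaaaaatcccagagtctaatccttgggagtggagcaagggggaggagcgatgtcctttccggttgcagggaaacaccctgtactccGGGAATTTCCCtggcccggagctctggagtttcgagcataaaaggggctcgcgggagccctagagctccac
Cxcl2: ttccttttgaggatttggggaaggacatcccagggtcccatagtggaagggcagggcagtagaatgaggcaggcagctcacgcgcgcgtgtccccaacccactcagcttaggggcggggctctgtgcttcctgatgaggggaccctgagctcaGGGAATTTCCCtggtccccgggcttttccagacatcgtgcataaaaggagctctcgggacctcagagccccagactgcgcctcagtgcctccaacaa
Cxcl3: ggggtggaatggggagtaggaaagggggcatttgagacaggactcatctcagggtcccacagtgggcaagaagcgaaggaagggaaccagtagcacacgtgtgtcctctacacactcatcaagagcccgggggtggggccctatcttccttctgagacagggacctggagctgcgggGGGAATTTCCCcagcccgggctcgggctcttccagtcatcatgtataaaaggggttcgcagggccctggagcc

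The stretch begins 71 bases before the start of Cxcl1, 97 before that of Cxcl2 and 73 before that of Cxcl3. Searched on both strands of all 27025 promoters of this length, GGGAATTTCCC was found in 14 (0.0518%). Among genes measured on both challenged arrays and matched to a promoter it was found in 9 of 14383, which were Hpn, Il16, Kremen2, Krtap5-3, Lyzl4 and Zfp84 beside the 3 ligands. No other gene of the 443 higher ones with a promoter held it, and none of 181 lower ones. The stretch was read from the 3 ligands, so their share says nothing of other genes, and a match is a description of letters, not of a bound site.

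The list of CXCR2 ligands and their neighbours had the highest median difference of the gene lists. Its 7 members include Pf4, a platelet chemokine of the same cluster that is not a ligand of CXCR2. All 7 were measured on both arrays and all 7 were 2-fold higher, with a median of 2.16. Cxcl5, which epithelium makes in large amounts, read 238, 962, 26470 and 98140 in wild-type control, labelled control, wild-type challenged and labelled challenged cells (difference 1.76). The platelet chemokines Ppbp (2.16) and Pf4 (1.69) and the lung chemokine Cxcl15 (1.03) completed the list with Cxcl1, Cxcl2 and Cxcl3. On the control arrays the median of this list was 0.62 over the 6 measured there.

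Of 18 CC chemokines on the array, 16 were measured on both, 10 were 2-fold higher, none was 2-fold lower, 1 had a bound and 1 was not above background on either. Their median was 1.53, and 0.88 with normexp. Ccl17, which draws type 2 T cells, read 174, 357, 1025 and 8397 (difference 2.90). The monocyte attractants Ccl7 and Ccl2 were 2.99 and 2.38 higher on the log2 scale, Ccl2 reading 204, 211, 433 and 2465. Ccl22, which shares its receptor with Ccl17, was at least 2.30 higher, and Ccl20 was not above background on either array. With normexp Ccl22 was at 0.52.

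Among ligands of CXCR3 and other CXC chemokines, 4 of 8 were higher and none lower, with a median of 0.80. Cxcl10 read 553, 375, 1753 and 8411 (difference 2.13), and Cxcl9 differed by 2.77. Of 20 chemokine receptors measured on both arrays, 5 were higher and none was lower (median 0.47), while 1 of the 22 on the array had a bound and 1 no value. Cxcr2, the receptor of the neutrophil attractants, read 41.2, 79.7, 150 and 861, and its relative Cxcr1 differed by 2.05 (0.92 with normexp). Both receptors are genes of neutrophils, and the neutrophil markers are given with their values below.

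Cytokines divided unevenly within their families. Of 14 interleukin 1 and 36 family genes measured on both arrays, 4 were higher (Il1b, Il1f9, Il1rn and the decoy receptor Il1r2) and none lower, with a median of 0.16. Il1a was at least 2.47 higher, and Il1f5 at least 2.48 lower on the log2 scale, but with normexp they were at 0.71 and -0.84. In the interleukin 17 and 22 axis, 4 of 18 measured genes were higher: Il17a, the epithelial Il17c (2.29), Il12b (2.91) and the interleukin 25 receptor Il17rb (1.07). Il17f and Il22, cytokines of the same T cells as Il17a, differed by 0.55 and 0.19. With normexp Il17c was at 0.87 and Il17rb at 0.58.

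Genes that interleukin 17 is known to induce in epithelium had a median well above 0. Of 16 measured on both arrays, 11 were 2-fold higher and all 16 lay above 0, with a median of 1.62 (1.19 with normexp), and 3 of the 19 listed had no value. Beside the chemokines, the antimicrobial proteins S100a8 (2308, 4111, 6675 and 31060, difference 2.09) and S100a9 (1.74) were among them. So was Csf3, the neutrophil growth factor, with a difference of 2.75 (0.82 with normexp). Lcn2, a siderophore-binding protein, stood below 2-fold at 0.77.

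In the interleukin 6 family and colony-stimulating factors, 6 of 19 genes were higher and none lower (median 0.47, and 0.30 with normexp). Il6 read 23.3, 9.44, 30.7 and 270, a difference of 3.01. Csf2 (2.34, and 0.81 with normexp), Osm (2.52), the receptor subunit Osmr (1.11) and Csf2rb (1.87), the receptor chain shared by Csf2 and Il5, were the others apart from Csf3. Downstream of this family, Socs3, the feedback inhibitor of STAT3, read 6231, 4231, 11860 and 39080 (difference 1.59), so that it was 2-fold higher at a high level. Lrg1, an acute phase glycoprotein, differed by 2.23, and 5 of 13 STAT3 feedback and target genes were higher in all (median 0.88).

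Some type 2 cytokines were higher as well. Il13, which drives mucus production, read 2.22, 2.02, 40.1 and 242 (difference 2.46), and Il5, the eosinophil growth factor, read 5.57, 8.71, 59.6 and 344 (difference 2.40). For both cytokines the control arrays were not well above background. Of 12 type 2 cytokines and receptors measured on both arrays, 5 were higher and none lower. Beside Il13 and Il5 these were Il4 (1.19), Il3 (1.25) and Il2rg (1.09), and Il9 was at least 2.67 higher. The median of this list was 0.78, and 0.44 over the genes measured on all 4 arrays. With normexp Il4 was at 0.60, Il3 at 0.48, Il2rg at 0.88 and Il9 at 0.70, all under 2-fold.

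The epithelial response to type 2 cytokines was mixed. Of 22 genes, 4 were higher, 2 were lower and the median was 0.36. Arg1, the arginine-degrading enzyme of this response, was higher (2.15), as were the eosinophil attractants Ccl11 (1.24, and 0.88 with normexp) and Ccl24 (1.57, and 0.89). Clca1 and Retnla, which goblet and epithelial cells make after type 2 cytokines, differed by 0.16 and 0.35, and Chil3 by 0.71. Slc26a4 and the trefoil peptide Tff1 were the 2 lower genes.

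Mucus genes differed little. Of 15 mucin and goblet cell genes measured on both arrays, only Muc13 was 2-fold higher (1.58) and none was lower. These counts lie near the share over all genes (3.07% higher and 1.69% lower). Muc5ac and Muc5b, the gel-forming mucins of the airway, differed by 0.08 and 0.41, and the goblet cell transcription factor Spdef by 0.23. Of 7 epithelial alarmin and receptor genes measured on both, 2 were higher, and Tslp, an alarmin that acts on dendritic cells, was at least 2.14 higher (0.38 with normexp). Il33 read 457, 398, 462 and 948, a difference of 0.91.

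**Figure D3:**
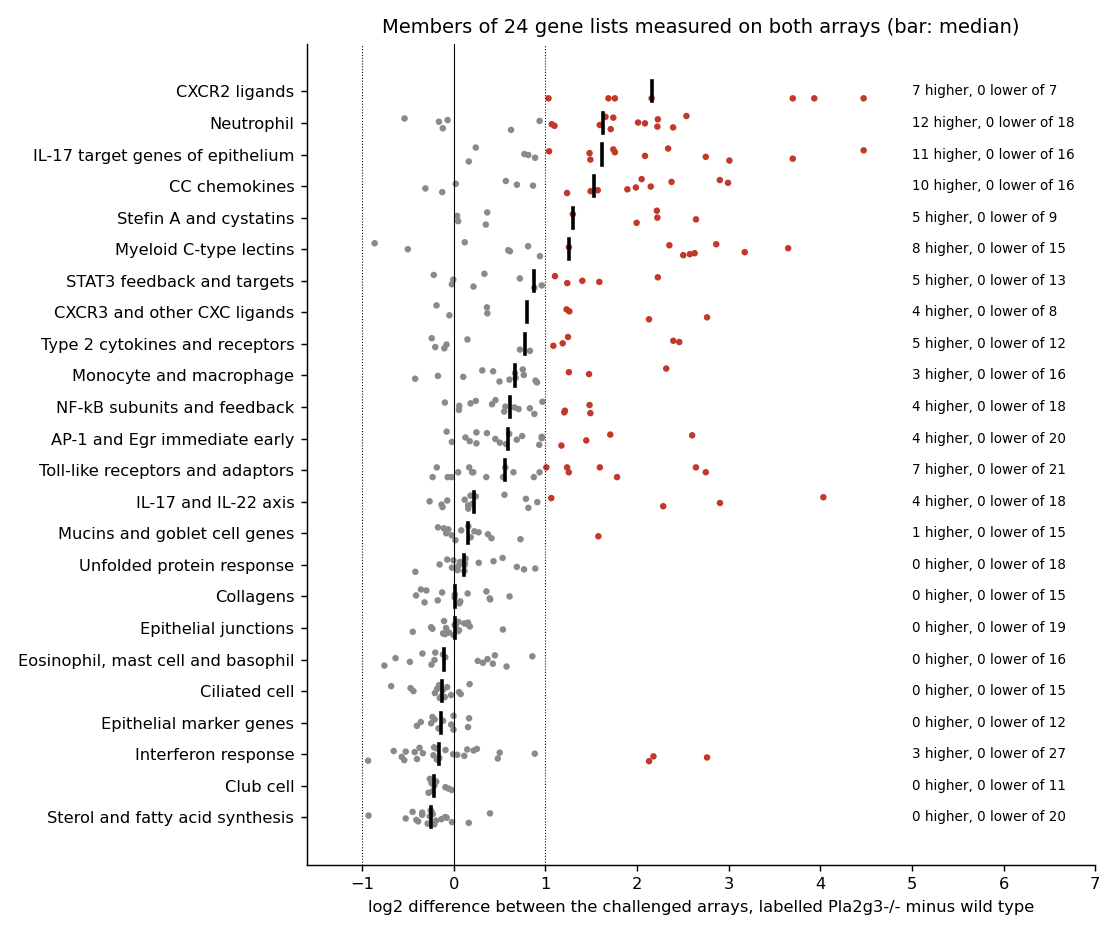
Log2 differences between the challenged arrays, labelled Pla2g3-/- minus wild type, of the members of 24 gene lists measured on both arrays; each dot is a gene, red where at least 2-fold higher, the black bar is the list's median, dotted lines mark 2-fold, and the counts stand at the right. The CXCR2 ligand list, which also holds Pf4, stands at the top with 7 of 7 higher and a median of 2.16. Among the 24 drawn, club cell and sterol synthesis genes lie at the bottom with medians of -0.21 and -0.25. Lists not drawn include the Trim12, Trim30 and Trim34 cluster (-0.38), cytochrome P450 genes (-0.27) and developing T cell markers (1.11).

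Over all 74 lists, 54 had a median above 0 and 20 below 0, and 7 lists had a median past 2-fold higher. These were CXCR2 ligands, CC chemokines, interleukin 17 targets, myeloid C-type lectins (1.26), stefins and cystatins (1.30), neutrophil markers (1.63) and developing T cell markers (1.11). No list had a median past 2-fold lower. Some genes stand in more than 1 list, such as Cxcl1 in CXCR2 ligands and interleukin 17 targets. S100a8 and S100a9 are in both the interleukin 17 targets and the neutrophil markers. Counts of lists are therefore not counts of separate groups of genes. With normexp 3 lists stayed past 2-fold higher, CXCR2 ligands (1.73), interleukin 17 targets (1.19) and neutrophil markers (1.23). The medians of CC chemokines (0.88), myeloid C-type lectins (0.97), stefins and cystatins (0.91) and developing T cell markers (0.58) were then under 2-fold, and that of the lectins was also 0.94 with bounds included.

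Innate receptors and signalling genes were higher in part. Of 15 myeloid C-type lectins and scavenger receptors measured on both arrays, 8 were higher and none lower, and their control median was -0.21. Marco, a scavenger receptor of macrophages, read 4631, 1657, 1046 and 6837, so it was 2.58 higher on the labelled array after challenge and 1.37 lower without it. Among Toll-like receptors and related genes, 7 of 21 were higher, led by the formyl peptide receptors Fpr1 (2.75) and Fpr2 (2.64), with Tlr2 at 1.24. NF-kB subunits and feedback genes had 4 of 18 higher, with the inhibitors Tnfaip3 (1.49) and Zc3h12a (1.48) first and Nfkbia, at a high level on both arrays, at 0.71.

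Immediate early genes of the AP-1 and Egr families had 4 of 20 higher, with a median of 0.59, and -0.30 on the control arrays. Egr2 differed by 2.60 and Egr1 by 1.45, and Fos stood below 2-fold at 0.93. In the TNF superfamily, 5 of 17 were higher, among them the lymphotoxin gene Lta (1.58) and Cd40 (1.96), and Tnf itself lay at the threshold with 1.00 (0.89 with normexp). Matrix metalloproteinases and their inhibitors had 6 of 18 higher, including the neutrophil collagenase Mmp8 (2.01) and Mmp9 (1.66, and 0.98 with normexp).

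Not every inflammatory list had a raised median. Of 27 interferon response genes, 16 lay below 0 and the median was -0.16, against -0.05 over all genes. The 3 that were 2-fold higher were Cxcl9, Cxcl10 and Ifng (2.18, and 0.80 with normexp), and none was 2-fold lower. Isg15, a direct interferon target, differed by -0.42 and Gbp5 by -0.93. No unfolded protein response gene (0 of 18), sterol or fatty acid synthesis gene (0 of 20), junction gene (0 of 19) or collagen (0 of 15) differed 2-fold in either direction. Over all genes 3.07% were higher and 1.69% lower, so counts of 0 in lists this short lie near that share. Of the sterol and fatty acid genes, 18 of 20 lay below 0, and the desaturase Scd2 was the lowest at -0.93.

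Genes of lipid mediators showed a few separate differences. Besides Pla2g3, none of the 12 secreted phospholipase A2 genes measured on both arrays was 2-fold different, and the median was 0.08. Over all genes 3.07% were higher and 1.69% lower, so such a count lies near that share. Pla2g10 and Pla2g2d, secreted enzymes of other groups, differed by -0.08 and -0.06. Among 13 intracellular phospholipases A2 only Pla2g4c was higher, reading 17.2, 186, 255 and 1549 (difference 2.47, and 3.55 on the control arrays). Pla2g4a, the main arachidonate-releasing enzyme inside cells, differed by -0.01.

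In prostaglandin synthesis and signalling, 3 of 18 genes were higher and 1 lower. Ptgs2, the inducible cyclooxygenase, read 428, 178, 448 and 1502 (difference 1.62), and on the control arrays its difference was -1.15. The receptors Ptger1 (2.09) and Ptgir (1.74) were higher and Ptgdr, the first prostaglandin D2 receptor, was lower (-1.53). With normexp Ptgir was at 0.56 and Ptgdr at -0.83. Ptges, which makes prostaglandin E2, differed by 0.01. Of 13 leukotriene and lipoxygenase genes only Ltb4r1, the leukotriene B4 receptor of neutrophils, was 2-fold higher (1.14, and 0.94 with normexp), with Alox5 and its partner Alox5ap at 0.79 and 0.89.

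Of 18 genes of lysophospholipid signalling measured on both arrays, 4 were higher and none lower. They were Ptafr, the receptor of platelet-activating factor (1.78), Lpcat2, which makes that lipid (1.73), Enpp2, which encodes autotaxin (1.46), and Gpr132 (1.26). Ion transport genes had 2 of 17 higher, among them the chloride channel Cftr (381, 738, 452 and 1913, difference 1.95), and 2 lower, Slc26a4 and the sodium channel subunit Scnn1g (-1.27, and -0.58 with normexp).

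Markers of leukocytes differed from list to list. Of 18 neutrophil markers on the array, all measured on both, 12 were 2-fold higher and none lower, with a median of 1.63 (1.23 with normexp) and 0.50 on the control arrays. G0s2 (2.54), Retnlg (1.71) and Stfa2l1 (2.22) were higher, while the granule genes Ngp, Ltf and Elane differed by -0.07, -0.12 and -0.16. Csf3r, the receptor of the neutrophil growth factor, read 85720 on the wild-type and 64750 on the labelled challenged array. The summed intensity of the 18 was 451100 on the wild-type and 525400 on the labelled challenged array, and no marker was below background on either. In cells pooled in bulk, fewer cells of a type and less RNA per cell cannot be told apart, and the part of leukocytes in the differences of cytokine, chemokine and receptor genes was not tested.

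Of 19 T cell markers, 9 were higher and 1, Cd247, was lower (-1.57, and -0.76 with normexp), with a median of 0.99. The same markers were further apart on the control arrays, where the median was 2.90. Rag1, the recombinase of developing lymphocytes, read 96.3, 4945, 58.3 and 348 (difference 2.45, and 5.797 on the control arrays). Of 14 developing T cell markers measured on both challenged arrays, 8 were higher, with a median of 1.11 (0.58 with normexp) against 4.30 on the control arrays. Dntt, the terminal transferase of developing lymphocytes, read 542, 24240, 549 and 1445, so the labelled control array held by far the highest value. The summed intensity of the 19 T cell markers was 11550 on the wild-type and 19370 on the labelled challenged array. Their part in the difference of Il17a was not tested.

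Other leukocyte lists had fewer members past 2-fold. Monocyte and macrophage markers had 3 of 16 higher (median 0.67), alveolar macrophage markers 2 of 14 (0.44) and dendritic cell markers 1 of 12 (0.56). None of 16 eosinophil, mast cell and basophil markers measured on both arrays differed 2-fold, with a median of -0.10. In the B and plasma cell list Jchain, which links antibody subunits, was the only member of 17 that was 2-fold higher (2.03). Endothelial markers had none higher and Sox17 lower (-1.97, and -0.70 with normexp), and fibroblast and smooth muscle markers none in either direction. Over all genes 3.07% were higher and 1.69% lower, so finding none or 1 in lists this short lies near that share. Of 8 parathyroid and thyroid genes measured on both arrays, 2 were higher and 1 lower, with a median of 0.75. The hormone genes Pth and Tg were higher by 1.56 and 1.26, Pth reading 1754, 375, 45.9 and 148 (0.85 with normexp), and the iodide transporter gene Slc5a5 was lower (-1.03, and -0.42 with normexp).

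Lower genes were fewer, and most of the brighter ones also lay below 0 on the control arrays. Slc26a4, which encodes the anion exchanger pendrin of airway epithelium, read 297 in wild-type control, 23.5 in labelled control, 6671 in wild-type challenged and 465 in labelled challenged cells. Its difference was -3.97 (15.7-fold lower) after challenge and -3.54 without it. The sulfotransferase gene Gal3st2 read 2696, 624, 1721 and 312 (difference -2.59, and -1.997 on the control arrays). Inpp5j, an inositol phosphatase gene, read 1882, 524, 1851 and 512, so both labelled arrays lay well under both wild-type arrays. Its probe, at chr11:3394386-3394445, lies next to the Pla2g3 probe.

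Genes below were chosen after their values were seen, as the lower genes at or above the median level. Serpina9, a serine protease inhibitor, differed by -1.88, Pttg1, which encodes securin, by -1.87, and Sparcl1, a matrix glycoprotein gene, by -1.78. Eaf2, which encodes a transcription elongation factor partner, read 41990, 11980, 59710 and 18340 (difference -1.83). Of 80 lower genes at or above the median level of all genes, 76 also lay below 0 on the control arrays. There 25 of the 80 were 2-fold lower too and 2 were 2-fold higher. Of all 21574 genes measured on the 4 arrays, 11584 lay below 0 on the control arrays and 1.14% were 2-fold lower there. P2rx7, the ATP-gated channel gene, differed by -2.31, but its probes did not share a sign.

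Genes seen on the wild-type array alone were led by Trim12a, which encodes a relative of the antiviral TRIM5 protein. Trim12a read 1489 in wild-type control and 1048 in wild-type challenged cells. On the labelled arrays it read 5.88 and 2.79, neither of which was well above background. It was at least 102.6-fold lower after challenge. The other bounds among the named genes were Wfdc6b (at least 8.86-fold lower), Mbd3l2 (8.30), Defb46 (6.70) and Nlrp9b (6.49). With normexp Trim12a was at -4.13, Wfdc6b at -1.28 and Mbd3l2 at -1.30, while Defb46 (-0.96) and Nlrp9b (-0.94) were under 2-fold. The probe of Wfdc6b, which read 31.3, 52.65, 90.5 and 3.80, holds a run of 9 bases of the repeat described below. Of the other 9 genes of the Trim12, Trim30 and Trim34 cluster measured on both arrays, Trim34a was lower (-1.29) and Trim30b higher (1.64, and 0.73 with normexp).

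Within 1 Mb of Pla2g3, 43 genes were measured on both arrays, with a median of -0.11. Pla2g3 itself aside, 2 of them were higher (Osm and a gene known by a transcript accession) and 1 was lower (Inpp5j). The probe of the accession-named gene, at chr11:3399294-3399353, lies close to Pla2g3. That gene was 2.94 higher after challenge and 4.03 higher on the control arrays. Inpp5j, also close to Pla2g3, differed by -1.98 and -1.73. Osm, further away, differed by 2.52 after challenge and -0.07 on the control arrays. Rnf185, a ubiquitin ligase gene in this window, differed by 0.00.

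Most of the largest lower differences were at low levels and followed 1 order of arrays. For 12 of the 15 genes the wild-type challenged array was brightest, then labelled control, then wild-type control, with labelled challenged dimmest. This order was found in 72 of all 370 lower genes (19.5%). That the wild-type challenged array stands above the labelled challenged one in it is fixed by the choice of lower genes, and only the places of the control arrays are not. Rxfp3, a receptor of the peptide relaxin 3, read 34.5, 64.5, 105 and 11.6, a difference of -3.30 after challenge and 1.02 without it. Oxct2b, a testis ketone-body enzyme gene, read 53.6, 92.4, 153 and 18.7 (difference -3.16). Neurod2, a transcription factor gene of neurons, and Defb26, a beta-defensin gene, differed by -2.79 and -2.67.

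The remaining genes of this order were Dnajb8 (-2.65), Angptl7 (-2.58), Dsg1c (-2.53), Kif12 (-2.38), Wfdc6a (-2.15), Arhgap33os (-1.98), Krtap12-1 (-1.97) and Trim43b, which read 70.96, 99.6, 147 and 40.2. Under normexp 13 of the 15 largest lower genes stayed past 2-fold, with a median of -1.24. Angptl7 (-0.96) and Krtap12-1 (-0.76) did not, and Rxfp3 was then at -1.48. With the brightest probe chosen on the 2 challenged arrays alone, the value of Rxfp3 was -0.30.

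Probes of 8 of the 15 largest lower genes hold a run of a short repeat, and none of the 15 largest higher do. The stretches below are shown because they are what these genes of unrelated function share. Each gives 30 bases of a probe of 60, with the run of the telomere-type repeat CCCTAA in capitals. The probe of Dsg1c, which also holds a run (9 bases), is not printed. On mm9, Rxfp3 lies at chr15:10963477-10963536 (minus strand), Oxct2b at chr4:122795186-122795243 (plus), Neurod2 at chr11:98187943-98188002 (minus) and Dnajb8 at chr6:88173124-88173183 (plus). Wfdc6a lies at chr2:164405788-164405847 (minus), Trim43b at chr9:88979655-88979714 (minus) and Krtap12-1 at chr10:77183942-77184001 (plus).
Rxfp3: caggaaaagaAACCCTAACtaggacatgct
Oxct2b: gtgaccttaattaaaAACCCTAACCtgaaa
Neurod2: ttcACCCTAACacgaatctccgcgtttttt
Dnajb8: acaagtgacagccaCCTAACCCatccctgg
Wfdc6a: caagggAACCCTAACaacttcccatctgaa
Trim43b: gtaaAACCCTAACtaagacatgttaaaatg
Krtap12-1: agggaccttctCTAACCCTgtgtactaaat

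The difference grew with the length of the run. Over 1055 probes whose longest CCCTAA run was 6 bases the median was -0.06 and 1.90% were 2-fold lower. At 8 bases (52 probes) the median was -0.28 and 19.2% were lower, and at 9 or more (32 probes) it was -1.04 and 53.1% were lower. The complementary run TTAGGG of 9 or more bases (14 probes) had a median of -0.04 and none past 2-fold. Of those 32 probes with a CCCTAA run of 9 or more, 18 followed the order of arrays given above, as did 2.55% of all measured probes, whatever their difference. The share of all 30478 measured probes that were 2-fold lower was 1.68%.

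**Figure D4:**
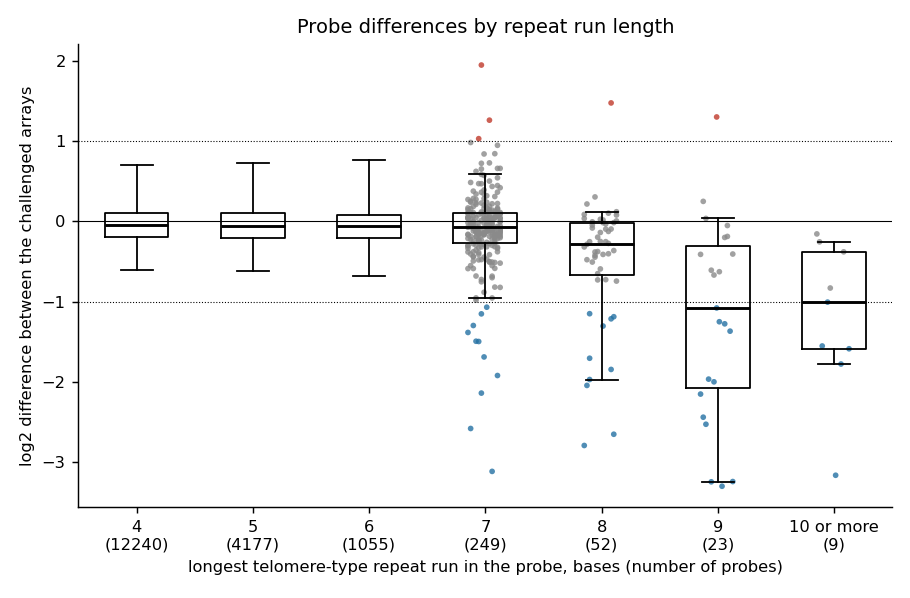
Log2 difference between the challenged arrays, labelled Pla2g3-/- minus wild type, of probes grouped by the length in bases of their longest telomere-type run CCCTAA, with the number of probes under each group; boxes give the quartiles and median, whiskers the 5th and 95th percentiles, and dots single probes from 7 bases on. The median is near 0 up to 7 bases, -0.28 at 8 and close to -1 at 9 and above.

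Differences were also seen with runs of 2 other repeats. With CA runs of 12 or more bases (55 probes) the median was -0.99 and 49.1% were 2-fold lower, and with GAA runs of 12 or more (72 probes) it was 0.59 and 34.7% were 2-fold higher. On the control arrays the medians were -0.49 for these CA runs, 0.67 for these GAA runs and 0.38 for CCCTAA runs of 9 or more. TG runs of 12 or more bases (109 probes) had a median of 0.32 with none past 2-fold. Of the 370 lower genes, 50 (13.5%) and of the 670 higher genes, 25 (3.73%) are read by a probe with a CCCTAA run of at least 8 bases or a CA or GAA run of at least 10, against 0.828% of all genes. Without such probes 645 genes were higher and 320 lower. What part these runs have in the differences of single genes was not tested.

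The comparison of the 2 control arrays shares no array with that of the challenged ones. Of 22254 genes measured on both control arrays, 592 (2.66%) were 2-fold higher and 286 (1.29%) lower on the labelled one. Of the 600 genes higher after challenge that were also measured there, 156 were 2-fold higher without challenge too, 18 were lower, and the median was 0.34. Of the 360 lower genes measured there, 70 were also lower, 13 were higher, and the median was -0.42. Il17a, Cxcl3, Acod1 and Clec4e were 2-fold higher after challenge and not without it, with control differences of 0.01, -0.42, -0.74 and -0.63. Control readings of Il17a (22 and 20.4) and Cxcl3 (18.8 and 12.96) were near the background limit, so their control differences say little. Signals not well above background reached 21.7 on the wild-type and 13.5 on the labelled control array. Pla2g3, Cxcl1 and Pla2g4c were 2-fold higher in both pairs. Whether the difference between the pairs of any gene exceeds the spread between mice was not tested.

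**Figure D5:**
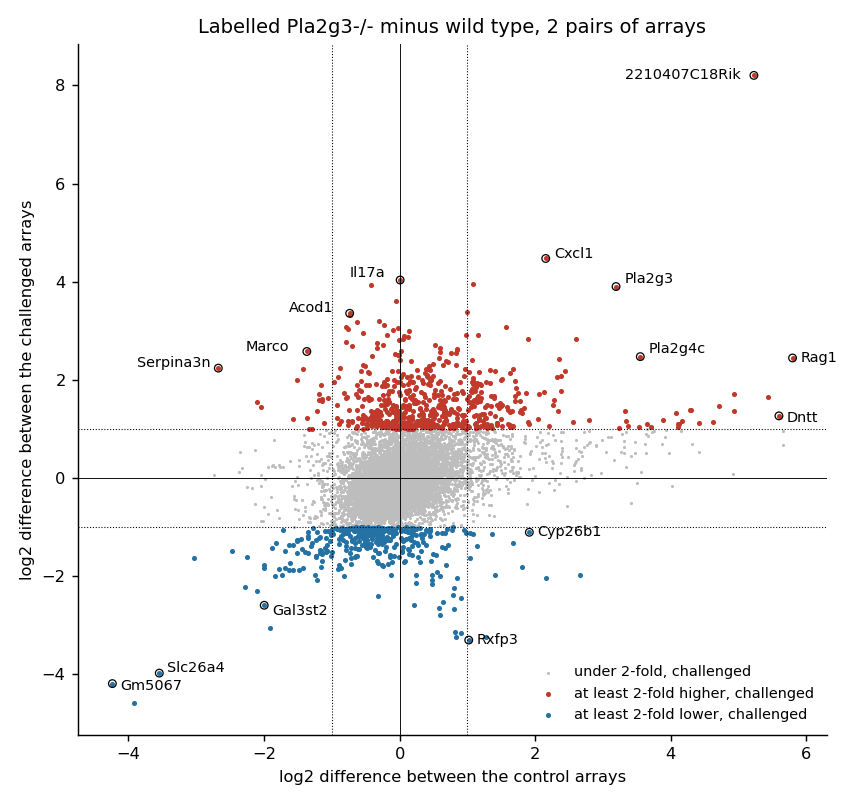
Each dot is a gene measured on all 4 arrays; the horizontal axis is the log2 difference between the control arrays and the vertical axis that between the challenged arrays, both labelled Pla2g3-/- minus wild type, with dotted lines at 2-fold. Most red dots (2-fold higher after challenge) lie between the vertical dotted lines, developing lymphocyte genes such as Rag1 and Dntt lie far to the right, and Slc26a4 and Gm5067 lie low on both axes.

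Set over all 4 arrays, 543 of the 670 higher genes (81.0%) were brightest on the labelled challenged array. Of the 370 lower genes, 246 (66.5%) were brightest on the wild-type challenged array and 309 (83.5%) dimmest on the labelled challenged one. Over all 21853 genes, 21.6% were brightest on the labelled challenged array and 21.3% on the wild-type challenged one. The labelled challenged array was dimmest for 37.9% of all genes. The higher and lower genes were chosen by the difference between the challenged arrays, so their shares follow in part from that choice.

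Several differences lay close together on a chromosome, in megabase windows of mm9 chosen after the values were seen. At 91 Mb of chromosome 5, 7 of 15 genes were higher, the CXC chemokines of the list above, and Epgn, an epidermal growth factor family gene, was lower (-1.71, and -0.89 with normexp). At 81 Mb of chromosome 11, 6 of 8 were higher (Ccl1, Ccl2, Ccl7, Ccl8, Ccl11 and Ccl12), Ccl1 with a difference of 2.72. At 83 Mb of the same chromosome, 8 of 25 were higher: Ccl3, Ccl4, Ccl6, the Schlafen genes Slfn3 (2.17, and 0.81 with normexp) and Slfn4, and the whey acidic protein family genes Wfdc17, Wfdc18 and Wfdc21. At 36 Mb of chromosome 16, 8 of 24 were higher, among them the stefin genes Stfa1 (2.22, and 0.91 with normexp) and Cstdc4 (2.64), whose near-identical copies make the share of each uncertain.

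The immunoglobulin kappa region, chr6:67242256-70911057, held 66 measured genes, of which 16 were higher and 1 was lower, with a median of 0.31 and -0.20 on the control arrays. In the heavy chain region, chr12:114006018-117960660, 17 of 97 were higher and 5 lower (median 0.19). On the control arrays 11 of 94 genes of this region were higher and 2 lower (median 0.04). At the start of chromosome 14, chr14:3234083-8998607, 15 of 32 genes were lower and 1 higher, with a median of -0.85 and -0.27 on the control arrays. Of these 32, 26 carry clone or prediction names, such as Gm3264 (3006 on the wild-type and 928 on the labelled challenged array). Variable gene segments and these copies are so alike that probes may read more than 1 of them.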

How the data were processed

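Total RNA of bronchial epithelial cells was hybridised to 4 single-colour Agilent mouse arrays, 1 per group, each from RNA pooled from 4 samples and labelled from 200 ng, per the labels' protocols. Scanner files deposited for each array give the background-subtracted intensity of every spot, made with Agilent Feature Extraction (version 11.5.1.1) on probes placed on mm9, per the file headers. In the deposited series matrix this intensity is divided by each array's 75th percentile: all 43020 spots matched the scanner signal within a fixed factor, so scale, centring and direction are known, and the column medians were 0.0875, 0.0879, 0.0860 and 0.0850. The 4 arrays lie on 1 slide, so a group's effect cannot be told apart from its position.

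The deposited intensity of the non-control spots was put on a log2 scale and the array's own 75th percentile subtracted. That percentile was 1986, 1834, 1808 and 1979 intensity units, and 78.7% to 81.5% of probes were well above background. Outlier spots (135, 140, 128 and 155) were left out, no spot was saturated, and spots of 1 probe were averaged. Of 39429 probes, 28324 were named through RefSeq's gene table (GRCm38.p6, names only), 11105 kept the file's name and 3404 had none. Each gene is represented by its brightest probe over the 4 arrays. Of the 6704 genes with 2 or more probes, 155 differed 2-fold and had several measured, and 116 of these (74.8%) had 1 sign. A gene not well above background on 1 array is given as "at least", against the higher of that array's lowest signal well above background and its own. Promoters are RefSeq's.

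Members and the 74 gene lists (1036 genes, 15 not on the array) were chosen with earlier results of these data known. Named are Pla2g3, the 15 largest differences in each direction, up to 5 bounds, and from each list the first 4 and the 6 largest. The 15 largest were taken from genes past 2-fold, measured on both arrays, without clone or prediction names, not in the lowest 25% of detected probes on the array where they were brighter, and with no measured probe of the other sign. List members named outside this rule (Cxcl15, Ccl20, Il22, Clca1, Nfkbia, Pla2g10, Pla2g2d, Retnlg, Ngp, Ltf and Elane), and every gene named only for its region, its promoter match, its level or its clone name, were chosen after their values were seen. Alternatives were normexp with an offset of 50, quantile normalization, centring on the median, averaging the probes of a gene, the brightest probe on the 2 challenged arrays, both filters on dim probes, outlier spots kept, the series matrix, and, added after seeing the data, probes without repeat runs. Python 3.11.15, numpy 2.4.6, pandas 2.3.3, R 4.3.3 and limma 3.58.1 (normexp) were used.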

Additional observations from a re-analysis of the deposited data

Results flagged for a closer look

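The named genes below were at least 2-fold apart in both pairs of arrays but in opposite directions, which is what singled them out. Values are log2 differences, labelled Pla2g3-/- minus wild type, and the difference between the pairs was not tested. Rxfp3 was -3.30 after challenge and 1.02 without it, and its probe holds a repeat run. Cyp26b1, a retinoic acid-degrading enzyme gene, was -1.105 after challenge and 1.91 without it. Serpina3n, an acute phase protease inhibitor gene, was 2.24 after challenge and -2.67 without it, and Marco was 2.58 and -1.37. Ptgs2 was 1.62 and -1.15, Ccl24 was 1.57 and -1.15, and the phosphatase gene Dusp8 was 1.45 and -2.05. The coagulation factor gene F10 was 1.36 and -1.22, and the hormone gene Pth was 1.56 and -2.11. With normexp the challenged differences of Ccl24 (0.89), Dusp8 (0.98) and Pth (0.85) were under 2-fold.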

How the results depend on the processing

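Counts depended most on how dim signal was treated: with normexp background correction 281 genes were higher and 136 lower, and with no filter on dim probes 1223 were higher and 1172 lower. Under the other alternatives 600 to 699 were higher and 320 to 370 lower; these include the removal of probes holding a repeat run, chosen after seeing the data. Of 544 single differences, 185 moved by more than the scanner's error under normexp, 33 when all probes of a gene were averaged, 14 without the filter, 2 with the brightest probe of the challenged arrays and 1 with outlier spots kept. None of the 544 that was past 2-fold changed sign under the alternatives run. Of the 15 largest lower genes, 7 were still measured without the repeat-run probes. The median of all genes stayed between -0.06 and -0.02. No paired analysis was possible because each group has 1 array and the labels give no replicate numbers. With 1 pooled array a group, the number of arrays limits the precision, and the spread between mice is unknown.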

Other observations

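The list of stefin A and cystatin genes, which encode protease inhibitors, had 5 of 9 members measured on both challenged arrays 2-fold higher. Its median was 1.30, which was 0.83 over genes measured on all 4 arrays. Stfa2l1 read 30.2, 54.6, 137 and 701 in wild-type control, labelled control, wild-type challenged and labelled challenged cells. In the Serpina3 cluster, which encodes protease inhibitors related to antichymotrypsin, 4 of 10 members were higher and 1, Serpina3m, was lower (-1.69, and -0.74 with normexp). Serpina3g read 1150, 728, 1668 and 14170, a difference of 2.96, and Serpina3f differed by 2.69. Complement genes had 2 of 18 higher, both receptors of the fragment C5a: C5ar1 (1.42, and 0.83 with normexp) and C5ar2 (1.20, and 0.97).

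Cell cycle genes lay above 0 on the array labelled Pla2g3-/- in 14 of 20 measured members, with a median of 0.66 after challenge and 1.01 without it, yet none was 2-fold higher after challenge. Mki67, a marker of dividing cells, read 2176, 5065, 1548 and 2893. The replication helicase gene Mcm3 was 2-fold lower (-1.25) and Mcm6 differed by -0.88. MHC class II genes had no member of 11 past 2-fold, with a median of 0.19 after challenge and -0.49 without it. Over all genes 3.07% were higher and 1.69% lower, so such counts in lists of this length lie near that share.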
